A study of Mus musculus with 6 samples.

Results

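The genes described are the 4 fibroblast growth factor (FGF) receptor kinases Fgfr1 to Fgfr4, the kinase-less receptor Fgfrl1, the syndecans Sdc1, Sdc2 and Sdc4, and the glypicans Gpc1 and Gpc4. They were chosen by name, and each matched 1 row, so that 10 of the 56792 rows of the deposited count table are covered. RNA sequencing had been done on wild-type C2C12 cells, a mouse myoblast line that fuses into contractile myotubes when serum is lowered. The cells were grown in 10% fetal calf serum and then kept for 4 days in 2% horse serum. The lenvatinib group got the drug at 1 µM (3 libraries), and the untreated group did not get it (3 libraries). Lenvatinib is an anticancer inhibitor of receptor tyrosine kinases, the FGF receptors among them. All libraries come from 1 cell line. The labels do not say whether replicates were separate cultures, whether untreated cells got the solvent, or when the drug was added, so the p-values speak of the scatter among these libraries only, and that scatter may be technical.

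FGF receptors are single-pass membrane kinases. An FGF ligand brings a pair of them together, and a heparan sulfate chain holds ligand and receptor in one complex. The chains are carried by core proteins at the cell surface: syndecans span the membrane, and glypicans are held in it by a lipid anchor. FGF signaling keeps myoblasts dividing and holds back their differentiation, and heparan sulfate on the muscle cell surface sets how strongly the cells respond to FGF2.

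The libraries held 24566768 to 32406563 gene counts with lenvatinib and 25529288 to 28886472 without. On the first principal component of log2 expression, with 75.3% of the variance, the lenvatinib libraries lay on one side and the untreated libraries on the other. Levels of a gene are given in CPM, its counts scaled to a common library total with TMM factors, and levels are compared between genes in TPM, which also divides by the deposited feature length. A fold change is the log2 ratio of lenvatinib to untreated libraries and stands with its SE, both from edgeR's quasi-likelihood test. Adjusted p-values were adjusted by Benjamini-Hochberg over the 14989 rows tested, and a row under 0.05 was called. In bulk RNA, a lower share of cells of a type and less RNA per cell cannot be told apart.

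With lenvatinib the transcripts of Fgfr1 and Sdc1 fell, and those of Fgfr2, Sdc4 and Gpc1 rose. The steepest of these changes were the 33.2% fall of Fgfr1 and the 70.7% rise of Fgfr2. The changes of Sdc1, Sdc4 and Gpc1 were between 8.5% and 15.2%. Fgfr3, Fgfr4, Fgfrl1 and Sdc2 were not called, and Gpc4 had too few counts for a test. Of the 9 tested genes 5 were called, 3 higher and 2 lower, where 28.2% of all tested rows were called (13.3% higher and 14.9% lower). The library values of the groups did not overlap in 6 of the 9, against 40.1% of all tested rows. The median log2 fold change of the 9 was 0.08, and that of all tested rows 0.0027. The genes were chosen with earlier results of these data known, so these shares are no independent evidence.

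**Figure D1:**
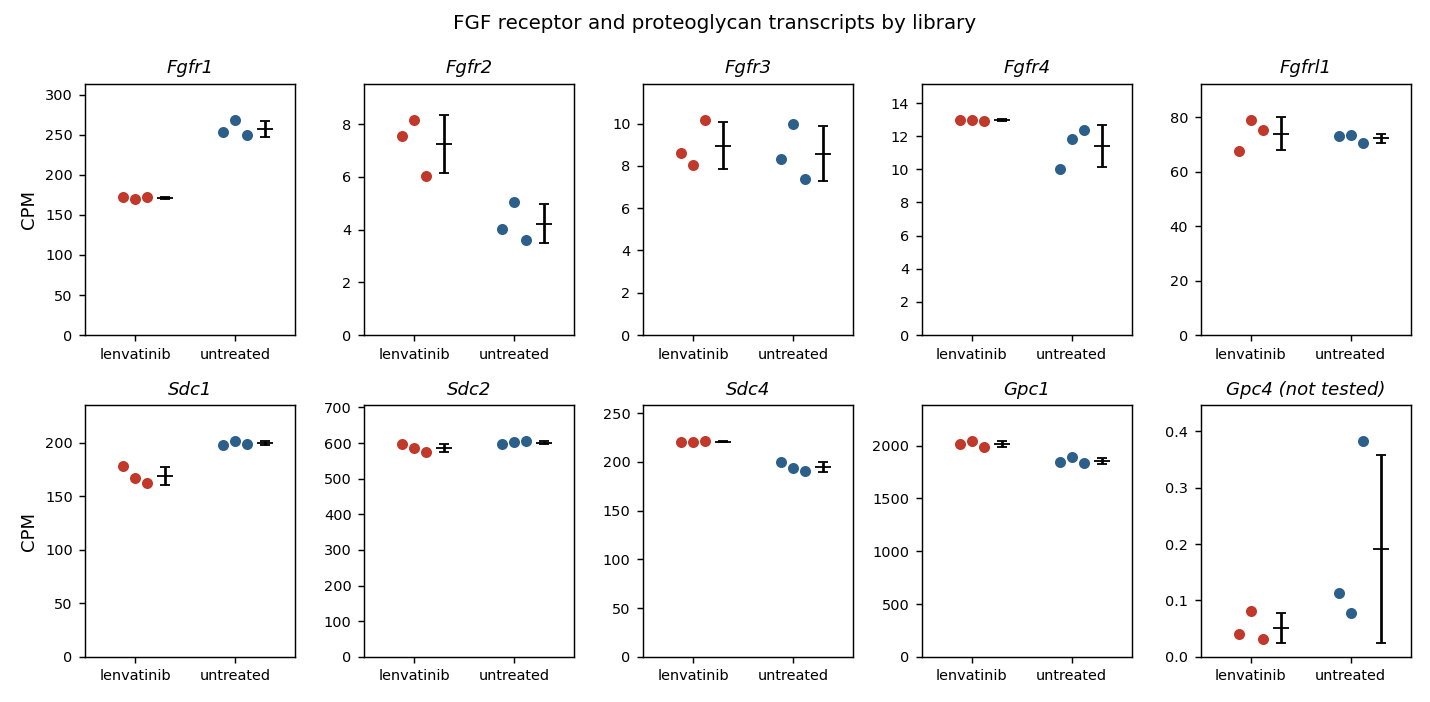
CPM (vertical axes, starting at 0, a scale per gene) of each gene in each library, lenvatinib in red on the left and untreated in blue on the right, with the group mean and SD (n = 3) as black bars. The 3 lenvatinib libraries of Fgfr1 sit between 170.3 and 173 CPM, below all untreated libraries, while the groups overlap in Fgfr3, Fgfrl1, Sdc2 and Gpc4.

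Fgfr1, the main FGF receptor of myoblasts, lies on chromosome 8 from 26003670 to 26065734 (plus strand) in the positions of the deposited table. It had 172, 170.3 and 173 CPM in the lenvatinib libraries, against 253, 269 and 249 CPM in the untreated libraries. Every lenvatinib library was below every untreated one, and the lenvatinib values lay closer together (a coefficient of variation of 0.673%, against 4.07%). This difference in spread rests on 3 libraries per group and was not tested. The log2 fold change was -0.58 ± 0.03 (adjusted p = 2.01e-19), with a 95% interval from -36.0 to -30.4%. Of all tested rows 4.96% had a log2 fold change as low as this or lower. In the M21 annotation 164 of the 9875 exon bases of Fgfr1 also belong to another gene. The row that overlaps it in the deposited table holds 10 counts over all libraries. What the shared bases add to or take from the value of Fgfr1 was not tested.

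Fgfr2, whose isoforms bind FGF7 and FGF10 or FGF2 depending on a spliced exon, had low values. Its levels were 7.55, 8.18 and 6.02 CPM with lenvatinib and 4.02, 5.05 and 3.61 CPM without, from 582 and 340 summed counts. The groups did not overlap, although the third lenvatinib library was the lowest of its group. The log2 fold change was 0.77 ± 0.13 (adjusted p = 1.87e-05), 1.71-fold higher, with a 95% interval from 41.5 to 106% higher. A change as high or higher was seen in 1.71% of all tested rows. The row of Fgfr2 spans 2960899 bases of chromosome 7 (129764181 to 132725079, minus strand) and overlaps 69 other rows, 33 of them on the other strand. These rows hold 149854 counts over all libraries, far more than Fgfr2 itself. In the M21 annotation 314 of its 10328 exon bases are shared with another gene, and the part of such reads in the value was not tested. Gene counts do not tell the isoforms apart.

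Fgfr4, a receptor of satellite cells and regenerating muscle (chromosome 13, 55300453 to 55316572), had 13.0, 13.0 and 12.9 CPM in the lenvatinib libraries, against 10.0, 11.8 and 12.4 CPM in the untreated libraries. All lenvatinib libraries lay above all untreated ones, yet the change was not called (0.18 ± 0.09, adjusted p = 0.109). Its 95% interval runs from 0.741 to 28.0% higher. Without untreated replicate 1, the lowest library, the log2 fold change was 0.0974 (adjusted p = 0.49), and over all alternatives the adjusted p ran from 0.0521 to 0.49. Fgfr3 (chromosome 5, 33879018 to 33894412), known best as a brake on cartilage growth, had 8.60, 8.05 and 10.2 CPM with lenvatinib and 8.34, 9.99 and 7.40 CPM without. The groups overlapped and the change was not called (0.08 ± 0.11, adjusted p = 0.661). Its 95% interval, from -9.56 to 22.8%, leaves room for a change of either sign. In the M21 annotation 998 of its 7158 exon bases belong to another gene too, whose row holds 12 counts in all. What these bases add to or take from the value of Fgfr3 was not tested.

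Per length, Fgfr1 made up most of the receptor kinase transcripts in every library. Its share of the summed TPM of Fgfr1 to Fgfr4 was 76.1, 75.9 and 76.0% with lenvatinib and 85.7, 84.2 and 84.1% without. The shares of the other receptor kinases were all higher with lenvatinib. Shares of a sum depend on each other, so the fall of Fgfr1 by itself raises the other shares. In their own levels, Fgfr3 and Fgfr4 were not called. Fgfr4 held 15.5 ± 0.154% with the drug and 10.1 ± 1.09% without, Fgfr3 5.41 ± 0.64% and 3.85 ± 0.43%, and Fgfr2 3.13 ± 0.496% and 1.35 ± 0.178% (SD, n = 3 each). For every 100 TPM of Fgfr1 there were 4.27, 4.67 and 3.40 TPM of Fgfr2 in the lenvatinib libraries, against 1.55, 1.83 and 1.41 TPM in the untreated libraries. The summed level of the 4 kinases was 75.0, 74.7 and 74.1 TPM with lenvatinib and 99.0, 105.3 and 98.4 TPM without. Shares and sums are descriptions, with no test.

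**Figure D2:**
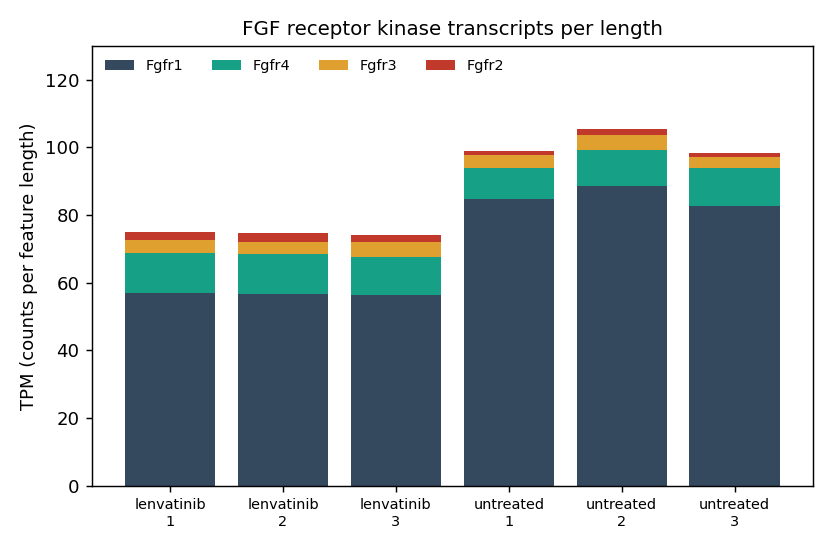
Stacked bars of the TPM of the 4 FGF receptor kinases in each library, the 3 lenvatinib libraries on the left and the 3 untreated libraries on the right. The lenvatinib bars end near 75 TPM and the untreated bars between 98.4 and 105.3 TPM, and Fgfr1 takes the largest part of every bar.

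Fgfrl1 binds FGF and heparin through an extracellular part like that of the other receptors, but has no kinase. It lies on chromosome 5 from 108840248 to 108854790 (plus strand). Its levels were 67.5, 79.2 and 75.3 CPM with lenvatinib and 73.2, 73.5 and 70.6 CPM without. The lenvatinib libraries lay on both sides of the untreated ones, and the change was not called (0.03 ± 0.04, adjusted p = 0.648; 95% interval from -4 to 8.95%).

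The syndecans went in different directions. Sdc1 (chromosome 12, 8821323 to 8843715), the syndecan of epithelia and of dividing myoblasts, had 178, 167 and 163 CPM with lenvatinib and 198, 202 and 199 CPM without. No lenvatinib library reached an untreated one, and the transcript fell (-0.24 ± 0.03, adjusted p = 6.54e-08; 95% interval from -18.9 to -11.4%). Sdc4 (chromosome 2, 164266167 to 164285807), which sits in focal adhesions and marks satellite cells, had 221, 221 and 221 CPM with lenvatinib and 200.2, 193 and 190.3 CPM without. It was higher in all 3 lenvatinib libraries than in any untreated one and rose (0.18 ± 0.03, adjusted p = 2.78e-06; 95% interval from 8.96 to 18.1% higher).

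Sdc2 (chromosome 15, 32920869 to 33035081), a syndecan of mesenchymal cells, had 597, 586 and 574 CPM with lenvatinib and 596, 603 and 605 CPM without. The groups overlapped in 1 library of each, and the change was not called (-0.04 ± 0.03, adjusted p = 0.302). Its 95% interval, from -6.14 to 1.02%, excludes a change of the size seen in Sdc1 or Sdc4. Per 100 TPM of Sdc4 there were 57.0, 53.2 and 51.8 TPM of Sdc1 in the lenvatinib libraries, against 69.6, 73.3 and 73.7 TPM in the untreated libraries. The summed TPM of all 4 syndecans, Sdc3 included, was 859 ± 22.7 with lenvatinib and 870.4 ± 7.57 without (SD, n = 3 each). Sdc3 itself, known from neural tissue and satellite cells, had 1.41 ± 0.0497 CPM with the drug and 1.27 ± 0.277 CPM without, and was not called (adjusted p = 0.725).

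Gpc1 (chromosome 1, 92759367 to 92788501), the glypican of adult muscle and brain, had more transcript than any other gene described here. It had 2018, 2041 and 1985 CPM with lenvatinib and 1846, 1888 and 1836 CPM without. The groups did not overlap, and the transcript rose by a small margin (0.12 ± 0.02, adjusted p = 0.000101; 95% interval from 5.02 to 12.1% higher). In the M21 annotation 977 of its 5159 exon bases belong to other genes too. The overlapping rows of the deposited table hold 731 counts in all, against 164187 and 150181 counts of Gpc1 in the lenvatinib and untreated groups. What the shared bases add to or take from the value of Gpc1 was not tested.

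Gpc4 (chromosome X, 51141898 to 51254129), a glypican of progenitor cells, had 1, 2 and 1 counts with lenvatinib and 3, 2 and 11 counts without. It had been listed among the abundant proteoglycans, which these counts go against. With 4 counts in 1 group and 16 in the other, 11 of them in the third untreated library, it was not tested in the main fit. With no filter on low counts its adjusted p was 0.201. Counts this low do not show that the transcript was lacking. Ccna2, a cyclin of cycling cells, also had 0 or 1 counts in every library, while Top2a of the same cells was at 92.7 and 74.6 CPM with and without lenvatinib. No other row overlaps that of Gpc4, and whether the rows of Gpc4 and Ccna2 are low for a like reason was not tested.

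**Figure D3:**
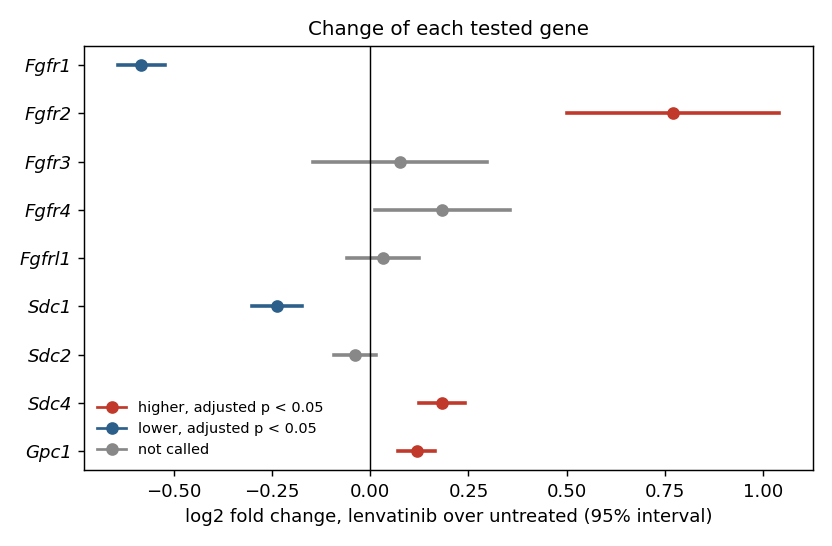
Log2 fold change of lenvatinib over untreated (horizontal axis) with its 95% interval for the 9 tested genes, red where higher and blue where lower at an adjusted p under 0.05, grey where not called. Fgfr1 at -0.58 and Fgfr2 at 0.77 lie farthest from 0, and the intervals of Fgfr3, Fgfrl1 and Sdc2 cross it.

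The levels spread widely. In TPM averaged over the 6 libraries, Gpc1 stood at rank 93 of the tested rows, Sdc2 at 345, Sdc4 at 685 and Sdc1 at 1114. Fgfr1 and Fgfrl1 stood at ranks 2585 and 2775, Fgfr4 at 8845, Fgfr3 at 11521 and Fgfr2 at 12918. No neighbours in this order overlapped within a group. The proteoglycan transcripts exceeded the receptor transcripts by far: for each TPM of the receptor kinases there were 29.5, 29.7 and 28.7 TPM of syndecans and glypicans with lenvatinib, against 21.2, 19.9 and 21.1 TPM without. The syndecan and glypican sum itself was 2217, 2222 and 2130 TPM with lenvatinib and 2103, 2095 and 2073 TPM without. The ratio therefore differs mainly through the lower receptor sum. One pair changed places between the groups. In the lenvatinib libraries Fgfrl1 (60.9 to 71.8 TPM) lay above Fgfr1 (56.3 to 57.1 TPM), and in the untreated libraries Fgfrl1 (63.7 to 66.7 TPM) lay below Fgfr1 (82.8 to 88.7 TPM). This change of place rests on the feature length of 10053 bases for Fgfr1: with the longest M21 transcript of 5041 bases in its place (2329 bases for Fgfrl1), Fgfr1 averaged higher than Fgfrl1 in both groups. In lenvatinib replicate 2, however, Fgfrl1 was still slightly above Fgfr1 with that length (34.0 and 33.8 CPM per kilobase).

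The sequences upstream of the called genes are shown to set the syndecan that fell beside the one that rose and beside Fgfr2. RefSeq (GRCm38.p6) start sites matched 7 of the 10 genes, Fgfr2, Sdc1 and Sdc4 of the called ones. Each sequence is the 250 bases before the start, 5′ to 3′ on the gene's strand; capitals mark GC boxes (GGGCGG) and the core of a TATA element (TATAA), searched on both strands, where TATAA and its reverse complement can overlap.
Sdc1, chr12:8771146-8771395, plus strand: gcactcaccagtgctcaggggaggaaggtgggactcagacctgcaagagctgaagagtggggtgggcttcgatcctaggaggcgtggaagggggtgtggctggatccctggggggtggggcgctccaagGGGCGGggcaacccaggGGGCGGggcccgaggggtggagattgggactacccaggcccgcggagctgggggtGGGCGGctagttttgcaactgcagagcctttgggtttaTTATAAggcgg
Sdc4, chr2:164443189-164443438, minus strand: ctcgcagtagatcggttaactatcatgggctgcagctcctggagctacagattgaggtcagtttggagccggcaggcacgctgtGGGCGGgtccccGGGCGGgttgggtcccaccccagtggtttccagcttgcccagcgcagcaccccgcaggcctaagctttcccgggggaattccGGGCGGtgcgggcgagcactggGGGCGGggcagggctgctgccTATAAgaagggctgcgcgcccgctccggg
Fgfr2, chr7:130266809-130267058, minus strand: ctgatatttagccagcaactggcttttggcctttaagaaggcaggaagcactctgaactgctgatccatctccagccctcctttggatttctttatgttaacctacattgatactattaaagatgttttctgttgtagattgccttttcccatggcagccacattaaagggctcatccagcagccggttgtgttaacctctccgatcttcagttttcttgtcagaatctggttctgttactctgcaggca
Sdc1 holds 3 GC boxes and a TATA core, found on both strands with an overlap, and Sdc4 holds 4 GC boxes and 1 TATA core, so the syndecan that fell and the one that rose share these letters. Fgfr2 holds neither. GC boxes were also found in the windows of Fgfr3, Fgfrl1 and Fgfr4, which were not called, and of Gpc4, which was not tested. A GC box was present in 32.7% and a TATA core in 22.8% of the 32851 windows of this length. The E-box CANNTG, bound by myogenic factors, was found in Sdc1 and Fgfr2 (1 each) and not in Sdc4, against 66.2% of all windows. The AP-1 site TGANTCA was found in none of the 3, against 6.75% of all windows. A match or its lack is a description of the letters in this window.

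FGF ligand transcripts were mostly low and went both ways. Of 22 ligand genes 8 could be tested, 3 of which fell and 2 rose (median log2 fold change -0.20). Of all tested rows 14.9% fell and 13.3% rose, the shares to set beside this list and the lists below. Fgf10, a ligand of FGFR2 made by mesenchyme, had 3.19, 2.66 and 2.56 CPM with lenvatinib and 4.51, 5.13 and 5.07 CPM without (-0.81 ± 0.15, adjusted p = 2.25e-05). Fgf2, which binds heparan sulfate tightly and drives myoblast growth, had 20.95, 22.2 and 22.2 CPM with lenvatinib and 26.5, 26.9 and 28.2 CPM without (-0.32 ± 0.06, adjusted p = 3.60e-05). In both genes all lenvatinib libraries lay below all untreated ones. Fgf7, close kin of Fgf10, fell by 0.45 on the log2 scale (adjusted p = 0.00258). Fgf9 was at 1.14 ± 0.275 CPM with the drug and 1.74 ± 0.0887 CPM without and just missed the threshold (adjusted p = 0.0502).

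Of the risen ligand genes, Fgf21 encodes a hormone that muscle releases under stress, at 59.5 ± 3.38 CPM with lenvatinib and 53.3 ± 0.343 CPM without (0.16 ± 0.04, adjusted p = 0.00374). Without the second lenvatinib library it was no longer called (adjusted p = 0.0542). Its co-receptor Klb had 1, 0 and 3 counts with the drug and 0 in each untreated library. Fgf11 rose by 0.16 (adjusted p = 0.00104); like Fgf13, at 10.1 ± 0.705 and 10.7 ± 0.962 CPM with and without lenvatinib, it encodes a protein that stays inside the cell and does not act through FGF receptors. Fgf5 was at 15.2 ± 1.01 CPM with lenvatinib and 13.6 ± 1.20 CPM without (adjusted p = 0.151). Fgf3, Fgf4, Fgf6 and Fgf23 had 0 counts in all libraries, where 3 counts correspond to 0.0926 to 0.123 CPM.

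Of 10 genes for proteins that bind FGF receptors or ligands or act beside them, 7 were tested, and 3 rose and none fell. Of all tested rows 28.2% were called. Cdon, a surface protein that promotes myogenesis, was at 692 ± 10.9 CPM with lenvatinib and 561 ± 10.95 CPM without (0.30 ± 0.03, adjusted p = 2.19e-12). Flrt1, whose protein binds FGF receptors, was at 1.87 ± 0.343 and 0.863 ± 0.155 CPM with and without the drug (1.10 ± 0.25, adjusted p = 0.000545). Cdh2 (N-cadherin) rose by 0.07, but its call was lost when any 1 library was left out (adjusted p up to 0.121). Ncam1, a partner of FGFR1 on muscle and nerve, was not called (adjusted p = 0.613).

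Among 11 other cores that carry heparan sulfate or share its ligands, 8 were tested. Of these 2 rose and 2 fell, where 28.2% of all tested rows were called. The largest change was in Gpc6, a glypican outside the chosen pair. It had 91.8, 94.4 and 95.7 CPM with lenvatinib and 50.01, 46.4 and 47.8 CPM without (0.97 ± 0.04, adjusted p = 4.97e-23), with no overlap between groups. Its share of the summed glypican TPM was 2.48 ± 0.073% with the drug and 1.39 ± 0.0669% without, as Gpc1 held 97.5 ± 0.0726% and 98.6 ± 0.0738% (SD, n = 3 each). Cd44 rose by 0.26. Nrp1, a co-receptor of VEGF, fell by 0.28, and Tgfbr3 (betaglycan), which presents TGF-beta, fell by 0.36. Hspg2 (perlecan), the core of muscle basement membrane, was at 1010.2 ± 124 CPM with lenvatinib and 968 ± 42.6 CPM without (adjusted p = 0.751).

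Of 11 tested genes for the linker and the chain, 1 rose and 2 fell, a share of called genes close to the 28.2% of all tested rows. Ext2, a subunit of the chain polymerase, rose (0.24 ± 0.03, adjusted p = 6.28e-08), Extl3, which starts the chain, fell (-0.23 ± 0.03, adjusted p = 7.39e-09), and the call of Pxylp1, a phosphatase of the linker, was lost without lenvatinib replicate 1 or 3 or untreated replicate 2 or 3 (adjusted p up to 0.219). Ext1, the partner of Ext2, was at 230 ± 3.48 and 226 ± 3.31 CPM with and without lenvatinib and was not called (adjusted p = 0.58).

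Of 16 tested genes for chain sulfation and its supply, 2 rose and 3 fell. This share of called genes, too, is close to the 28.2% of all tested rows. Hs6st1, which adds the 6-O-sulfate that FGF receptors bind, had 117, 120.3 and 114 CPM with lenvatinib and 91.2, 92.9 and 87.3 CPM without (0.37 ± 0.03, adjusted p = 1.25e-11). Ndst4 and Ndst3, low-level N-sulfotransferases, fell by 0.83 and 0.95 on the log2 scale, Ndst4 to 6.43 ± 0.594 CPM with lenvatinib, against 11.4 ± 1.04 CPM without. Ndst1, the abundant enzyme of this family at 145 ± 1.57 and 153 ± 0.758 CPM with and without the drug, fell by 0.08 (adjusted p = 0.0455), a call lost when any 1 library was left out (adjusted p up to 0.131). Slc35b2, a carrier of the sulfate donor, rose by 0.13, a call lost without lenvatinib replicate 1 or untreated replicate 3 (adjusted p up to 0.163).

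The enzymes that edit finished chains at the cell surface moved apart. Sulf2 and Sulf1 both remove 6-O-sulfate outside the cell. Sulf2 had 95.6, 99.9 and 98.9 CPM with lenvatinib and 65.8, 65.1 and 66.9 CPM without (0.57 ± 0.04, adjusted p = 1.23e-16). Sulf1 had 149.6, 158 and 157 CPM with lenvatinib and 179, 174 and 174 CPM without (-0.18 ± 0.03, adjusted p = 6.72e-06). Neither pair of groups overlapped. Heparanase, Hpse, which cuts the chain, fell by 0.57 at a low level (2.49 ± 0.139 and 3.69 ± 0.242 CPM with and without the drug). Of proteases that can shed syndecans, Mmp14 fell by 0.21 and Mmp2 rose by 0.12, while Adam10 and Adam17 were not called. In this list 2 of 8 tested genes rose and 3 fell, where 28.2% of all tested rows were called.

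Inside the cell, 7 partners of the syndecan tail and of its trafficking were tested. Of these 1 rose and 2 fell, where 28.2% of all tested rows were called. Prkca, the kinase that SDC4 activates, rose by 0.17 (adjusted p = 0.000364). Dnm2 and Sdcbp (syntenin, which binds the syndecan C-terminus) fell by 0.13 and 0.12. Of 17 adaptors and enzymes that relay the receptor's signal, 4 rose and 5 fell, beside the same 28.2% of all tested rows. Shc1, an adaptor, was at 129 ± 2.13 and 162 ± 5.35 CPM with and without lenvatinib (-0.33 ± 0.03, adjusted p = 2.35e-11). Stat3 and Nedd4 fell by 0.24 and 0.11. Grb14, an inhibitory adaptor, rose by 0.73 to 5.64 ± 0.368 CPM. Frs2, the docking protein of FGF receptors, fell by 0.13 (adjusted p = 0.00818), but not without the third lenvatinib library (adjusted p = 0.0767). Sos2, Ptpn11 and Gab1, adaptors and enzymes of the Ras branch, rose by 0.13, 0.08 and 0.16. Leaving out 1 library ended these calls: lenvatinib replicate 2 or untreated replicate 1 or 2 for Sos2 (adjusted p up to 0.0951), lenvatinib replicate 1 or 2 or untreated replicate 3 for Ptpn11 (adjusted p up to 0.081), and replicate 1 or 3 of either group for Gab1 (adjusted p up to 0.227). Of 12 kinases and GTPases of the MAP kinase core, Mapk3 fell by 0.24 (adjusted p = 3.47e-06) and Nras rose by 0.10. The call of Nras was lost without lenvatinib replicate 1 or untreated replicate 2 (adjusted p up to 0.144). The rest were not called, so the share of called genes was below the 28.2% of all tested rows.

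Feedback genes and targets of FGF receptor signaling fell in 10 of 14 tested cases and rose in 1 (median log2 fold change -0.38). Dusp4, Spry1, Spred1 and Etv1 fell by 0.74, 0.53, 0.45 and 0.61, and Ccnd1 rose by 0.22. The calls of Spred3 and Spry4, both lower, were each lost without lenvatinib replicate 2 or 3 or untreated replicate 1 or 2 (adjusted p up to 0.0848 and 0.247). Etv5, Spry2 and Dusp6, all targets of the FGF pathway, were not called (adjusted p = 0.741, 0.758 and 0.768), with log2 fold changes of 0.02 to 0.03. Over the 10 pathway lists, 50 of 108 tested genes outside the chosen 10 were called (46.3%), 19 higher and 31 lower, beside 28.2% of all tested rows. The lists had been drawn up with earlier results known, so this share is no independent evidence.

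**Figure D4:**
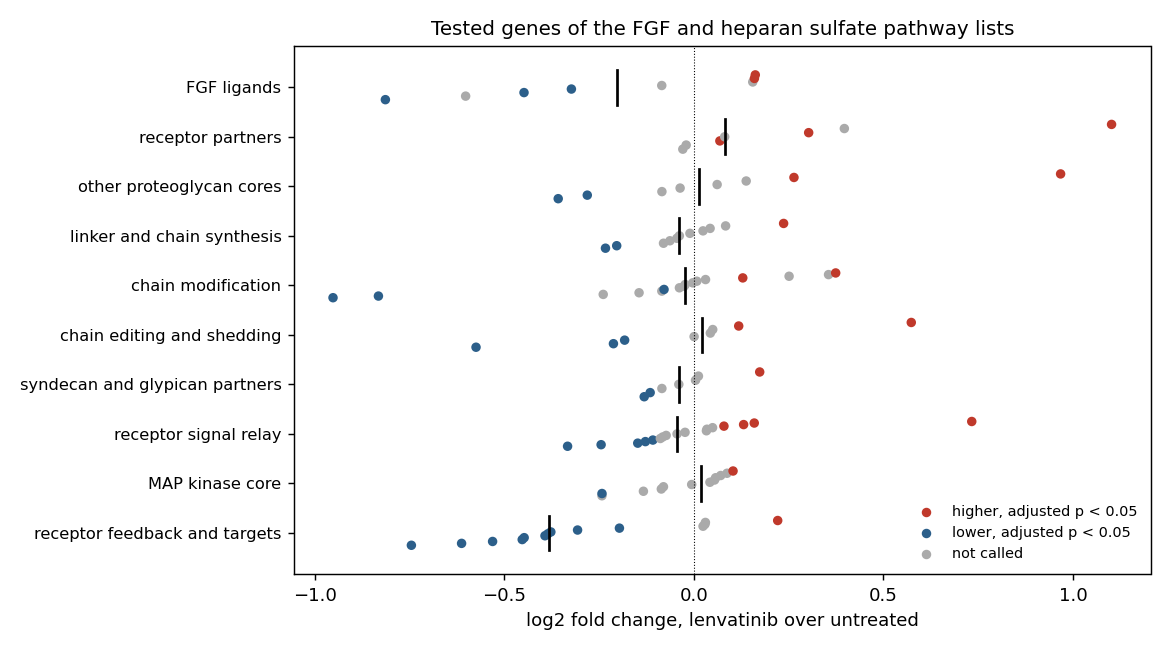
Log2 fold change of lenvatinib over untreated for each tested gene of the 10 pathway lists, 1 point per gene, red where higher and blue where lower at an adjusted p under 0.05, grey where not called, with the list median as a black bar. The feedback and target list has its median at -0.38, the lowest of the lists, and the other medians lie between -0.20 and 0.08.

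Markers of cell state and of other cell types moved beside these genes, and their part in the results was not tested. Of all tested rows 13.3% rose and 14.9% fell. Of 11 tested myotube markers 6 rose and 2 fell. Myog rose by 0.27, while the 2 that fell were Des, by 0.19, and Actn2, by 0.15. The summed level of these markers was 15340 to 15420 CPM with lenvatinib and 14590 to 15010 CPM without. Of 9 tested markers of cycling or reserve myoblasts 4 rose, Myod1, Myf5, Top2a and Cdk1, and none fell, with sums of 433 to 442 CPM with lenvatinib and 380 to 409 CPM without. Mki67, the proliferation marker, was at 60.1 ± 4.64 and 59.6 ± 5.78 CPM with and without the drug. Of 6 tested fibroblast markers 2 rose and 2 fell (sums of 284 to 304 CPM with lenvatinib and 315 to 319 CPM without), and Thy1 had 2 counts in all. Endothelial markers summed to at most 1.43 CPM with the drug and 0.66 CPM without, with Emcn and Tie1 at 0. Macrophage markers summed to 2.14 to 2.82 CPM with the drug and 8.27 to 10.4 CPM without, a difference made by Cd53 (0.388 ± 0.0575 and 7.64 ± 1.27 CPM), while Adgre1 was at 0 and Ptprc had 2 counts in all.

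The genes whose log2 CPM followed that of Fgfr1 most closely over the 6 libraries, among 4341 rows of at least 50 CPM, were Slc25a37 (Pearson r = 0.9991), Ccndbp1 (0.9991), Cst3 (0.997), Sfxn3 (0.9969) and Tsc22d1 (0.9965). The 6 points share 2 groups of 3 libraries, so such a value mostly reflects a difference between groups with little spread inside them. Their falls with lenvatinib, by 0.14 to 0.38 on the log2 scale, were smaller than that of Fgfr1. Of the other kinases that lenvatinib inhibits, Pdgfra was at 11.6 ± 0.617 and 15.4 ± 0.96 CPM with and without the drug (-0.41 ± 0.08, adjusted p = 8.11e-05), Flt1 and Ret were not called, Kdr had 2 counts in all, and Flt4 and Kit had none.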

How the data were processed

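The table analysed holds raw gene counts as the authors deposited them, 1 column for each of the 6 libraries. Sample titles gave the groups and replicate numbers. Per the labels' protocols, total RNA was purified on columns, and Hisat2 2.0.1 did the alignment. The submitters' processing notes also name HTSeq 0.6.1 and the build mm10. No source used here states the library kit or strand setting, so antisense neighbours cannot be told apart. TPM was computed here with the feature length in bases (unit other) that the authors deposited beside the counts. Deposited positions are printed without a build: of 51811 identifiers shared with GENCODE M21 (mm10), 2.9% have the same start and end.

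Groups were compared with edgeR 4.0.16 in R 4.3.3 by its robust quasi-likelihood test (TMM factors 0.9956 to 1.007), after filterByExpr (minimum count 10, minimum total 15). The SE came from the F statistic. The procedure was tested on simulated data. Libraries of a group differed by more than sampling noise (chi-square per degree of freedom 2.78 to 5.6), so none was a copy. A floor of 3 counts covers counting error only. Alternatives were other scalings, other filters, a stricter threshold, DESeq2 1.42.0, limma-voom (limma 3.58.1), a replicate block, other lengths and leaving out each library. The length change for the order of Fgfr1 and Fgfrl1 was chosen after seeing the data.

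The 10 genes and the lists were chosen with earlier results of these data known. All 10 are named; from each pathway list up to 4 called genes per direction with the smallest p are named, beside all ligands of at least 1 CPM and the 5 genes closest to Fgfr1 in pattern. Other genes named were chosen after their values were seen.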

Additional observations from a re-analysis of the deposited data

How the results depend on the processing

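The calls of the 9 tested genes held under all 17 alternatives: 5 were called in each, 3 higher and 2 lower. The log2 fold change of Fgfr1 ranged from -0.605 to -0.55 and that of Fgfr2 from 0.666 to 0.914. Signs turned in genes that were not called: Fgfr3 ranged from -0.0372 (without lenvatinib replicate 3) to 0.196 and was at -0.0225 without untreated replicate 3. Fgfrl1 ranged from -0.0152 (without lenvatinib replicate 2) to 0.0931. Called rows numbered 3618 to 3797 when 1 library was left out, 3319 with DESeq2 and 3049 at an adjusted p under 0.01, against 4228. Of the 50 called list genes 32 were called in all 17 alternatives. Another 5 (Fgf10, Flrt1, Ndst3, Hpse and Grb14) were called wherever tested, but a filter on a mean of at least 5 CPM left them out. The other 13 lost the call without at least 1 library, and no sign changed where tested.

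The share of Fgfr1 among the receptor kinases depended on the length: 85.5% with lenvatinib and 91.4% without in CPM, and 81.7% and 88.9% with the longest M21 transcript, lower with lenvatinib each time. The log2 ratio of Fgfr1 to Fgfrl1 turned from -0.228 to 0.103 in lenvatinib libraries with that length. The SD of the turned ratio over the lenvatinib libraries was 0.122, so their order with that length is not settled.

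Libraries with the same number did not deviate together (r = 0.0217, -0.0782 and -0.00417). With the replicate block 4134 rows, 48 list genes and the same 5 of the 9 genes were called; Fgfr1 was at -0.582 and Fgfr2 at 0.777. Depth limits Fgfr2, Fgfr3 and Gpc4 in particular.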
